A study of Mus musculus with 12 samples.

Results

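Cholesterol handling in mouse liver was followed through 32 genes, chosen by name as the enzymes of cholesterol synthesis and the main genes of its uptake, efflux, esterification and regulation. They made up 32 of the 19340 genes tested. The array carried 61 probes for them, and all 32 genes were well above background on all 12 arrays with no saturated spot. By role, 19 encode enzymes of synthesis (8 in the mevalonate and isoprenoid steps and 11 in the squalene and sterol steps), 7 regulators or uptake proteins, and 6 proteins of efflux, esterification or secretion. Sc4mol, the name used by the array, is now called Msmo1. Whole liver was taken from 11-week-old C57BL/6 mice of 4 groups, with 3 animals in each and 1 array per animal. These were males given dexamethasone, males given vehicle, females given dexamethasone and females given vehicle. Dexamethasone, a synthetic glucocorticoid, was injected intraperitoneally at 1 mg/kg, the vehicle was phosphate buffered saline, and livers were taken 6 h later. Every animal of all 4 groups had been adrenalectomized, which removes the main source of its own glucocorticoid, and the females were in diestrus.

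Hepatocytes make cholesterol from acetyl-CoA through mevalonate, isoprenoids, squalene and lanosterol. The transcription factor encoded by Srebf2 drives most genes of this route, together with the factor that binds the CCAAT box. When sterols are plentiful, the INSIG proteins hold the SREBP escort protein SCAP in the endoplasmic reticulum, so that the factor is not processed and the enzymes are made less. Insig1 is itself a target of this system, whereas Insig2 is known in liver for a separate control by hormones and feeding. Cholesterol leaves the hepatocyte onto nascent HDL through ABCA1, into bile through the ABCG5 and ABCG8 pair, or in VLDL particles loaded by the transfer protein MTTP. HDL cholesterol returns through the receptor encoded by Scarb1.

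Values below are scaled intensities in kilounits (kU), that is, the processed signal of the scanner divided by its array's 75th percentile and multiplied by one common factor. They can be set side by side between arrays for 1 gene, but not between genes. The 75th percentile before scaling was 578.2 to 1251.2 intensity units over the arrays. The labels were checked first with genes outside the set. Fkbp5, a classical glucocorticoid receptor target, lay at 5.97 to 9.19 kU on the 6 dexamethasone arrays, against 0.204 to 0.861 kU on the 6 vehicle arrays. Xist was well above background on all 6 female arrays and on 0 of the 6 male arrays. Hepatocyte markers were strong in every group: the summed level of 8 of them was 2348 to 2797 kU in dexamethasone males, against 1897 to 1979.6 in vehicle males, and 2184 to 2314 in dexamethasone females, against 1840.0 to 2035 in vehicle females. Of these 8 markers, 5 rose with dexamethasone in males and 2 in females by limma's adjusted p. Over all genes tested, 10.4% were higher and 12.1% lower in males, and 6.79% and 6.88% in females. Of 5 B cell markers 3 fell in each sex, and their sum was 0.396 to 0.649 kU in dexamethasone males, against 1.75 to 2.62 in vehicle males, and 1.03 to 1.76 in dexamethasone females, against 4.27 to 9.26 in vehicle females. Of 6 T and NK cell markers 3 fell in males and 0 in females, of 6 stellate cell and fibroblast markers 2 and 0, and of 6 liver endothelial markers 2 fell and 1 rose in males, and 1 fell and 1 rose in females. Of 8 Kupffer cell and macrophage markers 1 fell in males and 0 in females, which lies near the shares of all genes. Averaged over both sexes, however, 3 of the 8 fell, where 17.4% of all genes were lower. The sum of these 8 was 32.002 to 43.3 kU in dexamethasone males, against 46.8 to 77.2 in vehicle males, and 48.4 to 94.2 in dexamethasone females, against 73.5 to 112.5 in vehicle females. The part of these shifts in the results below was not tested. In RNA from whole liver, fewer cells of a type and less RNA per cell cannot be told apart.

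The promoters are shown first, because many members moved together. RefSeq promoter windows of GRCm38.p6, 250 bases before to 50 bases after a start site, were matched for 26 of the 32 genes, which gave 33 windows. Fdps, Fdft1, Sqle, Stard4, Scarb1 and Soat2 were not matched. The motif CCAAT, searched on both strands, was in 22 of the 33 windows, belonging to 22 of the 26 genes, and in 37.4% of all 32851 promoter windows of the table. Among synthesis genes 15 of 19 windows held it. A fixed sterol regulatory element, TCACNCCAC on either strand, was in 1.24% of all windows and in that of 1 member, Hmgcs1, at −137 from its start. The motif AGAACA, which the glucocorticoid receptor can bind, was in 19.0% of all windows and in 11 of the 33 member windows, from 10 genes. AGGTCA, a core motif of other nuclear receptors, was in 16.3% of all windows and 5 of the 33, and the GC box GGGCGG in 35.7% and 24 of the 33. No matches of different motifs overlapped in the members. The first set below shows Hmgcs1, Mvd and Insig1, whose RNAs fell in females, with CCAAT on either strand in capitals and, in Hmgcs1 alone, the sterol regulatory element too. The windows are chr13:119690101-119690400 (plus strand) for Hmgcs1, chr8:122443373-122443672 (minus strand) for Mvd and chr5:28071162-28071461 (plus strand) for Insig1, each printed 5′ to 3′ along the gene.
Hmgcs1: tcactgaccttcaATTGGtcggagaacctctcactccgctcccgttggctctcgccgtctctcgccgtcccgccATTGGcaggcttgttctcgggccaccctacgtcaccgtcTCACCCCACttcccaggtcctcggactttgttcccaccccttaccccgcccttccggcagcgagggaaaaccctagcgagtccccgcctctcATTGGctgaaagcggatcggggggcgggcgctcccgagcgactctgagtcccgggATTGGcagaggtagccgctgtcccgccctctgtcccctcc
Mvd: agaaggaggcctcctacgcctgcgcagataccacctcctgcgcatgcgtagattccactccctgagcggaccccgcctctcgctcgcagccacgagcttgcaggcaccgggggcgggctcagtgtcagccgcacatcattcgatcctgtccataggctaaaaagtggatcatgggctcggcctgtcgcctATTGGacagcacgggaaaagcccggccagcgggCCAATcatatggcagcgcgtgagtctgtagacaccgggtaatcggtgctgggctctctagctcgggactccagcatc
Insig1: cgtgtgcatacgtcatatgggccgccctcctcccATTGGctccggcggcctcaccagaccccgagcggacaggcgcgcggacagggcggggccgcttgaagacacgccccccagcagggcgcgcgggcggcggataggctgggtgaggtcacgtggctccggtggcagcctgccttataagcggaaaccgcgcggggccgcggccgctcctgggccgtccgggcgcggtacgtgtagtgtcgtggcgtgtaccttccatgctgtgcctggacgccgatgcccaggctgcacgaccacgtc
Counted from the start site, the CCAAT matches of Hmgcs1 began at −237, −176, −45 and 11, those of Mvd at −60 and −27, and that of Insig1 at −216. The Hmgcs1 window also holds an AGAACA match, at −165, which is left in lower case.

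A second set of windows belongs to Insig2, whose RNA rose, and to Abcg5 and Abcg8, whose RNAs fell in males. Insig2 had 3 start sites in the table, and the window of the most upstream one, chr1:121332540-121332839 (minus strand), was the one of the 3 that held CCAAT (3 matches) and AGAACA (1 match, at −229). Both motifs are in capitals there. Abcg5 and Abcg8 are transcribed away from each other from starts that lie 110 bases apart, so their windows share 209 bases and 1 AGAACA match, at chr17:84683075-84683080. The Abcg5 window, chr17:84682962-84683261 (minus strand), is shown with that match in capitals. A CCAAT match at position 1 of the same window is left in lower case.
Insig2: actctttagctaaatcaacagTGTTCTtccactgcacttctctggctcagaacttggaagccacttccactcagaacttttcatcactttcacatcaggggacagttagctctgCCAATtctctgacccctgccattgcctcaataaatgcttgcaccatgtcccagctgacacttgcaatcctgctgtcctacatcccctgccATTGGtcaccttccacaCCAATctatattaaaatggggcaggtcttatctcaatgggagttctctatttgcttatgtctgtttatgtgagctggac
Abcg5: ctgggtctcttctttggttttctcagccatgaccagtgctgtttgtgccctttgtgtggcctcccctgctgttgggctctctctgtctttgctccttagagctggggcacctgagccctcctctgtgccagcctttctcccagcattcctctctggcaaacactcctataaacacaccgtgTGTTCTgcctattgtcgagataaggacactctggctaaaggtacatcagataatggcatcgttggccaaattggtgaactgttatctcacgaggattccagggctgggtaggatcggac
Both capitalised AGAACA matches read as the complement, TGTTCT, on the strand of the gene printed. A match of letters is a description of the window and not evidence of binding.

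More synthesis genes fell with dexamethasone in females than in males, although the difference between the sexes, tested further on, did not pass for any of them. In females 0 of the 19 synthesis genes rose and 9 fell, with a median log2 fold change of −0.88 over the 19. In males 1 rose and 1 fell, with a median of −0.16. Averaged over both sexes 1 of the 19 rose and 8 fell, with a median of −0.54. The median over all genes tested was 0.02 in females, 0.01 in males and 0.02 averaged over both. Over all 32 genes, 3 rose and 12 fell in females, against a background of 6.79% of all genes higher and 6.88% lower. In males 6 rose and 6 fell, against a background of 10.4% higher and 12.1% lower. Averaged over both sexes 5 rose and 14 fell, where 16.6% of all genes were higher and 17.4% lower. The male count was the least stable one: it was 7 without male dexamethasone 2 or male dexamethasone 3, 6 without male vehicle 1 and 5 without male vehicle 3. Calls are limma's, with p-values adjusted over all genes and a threshold of 0.05, and fold changes are log2 values ± standard error with 3 animals per group.

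**Figure D1:**
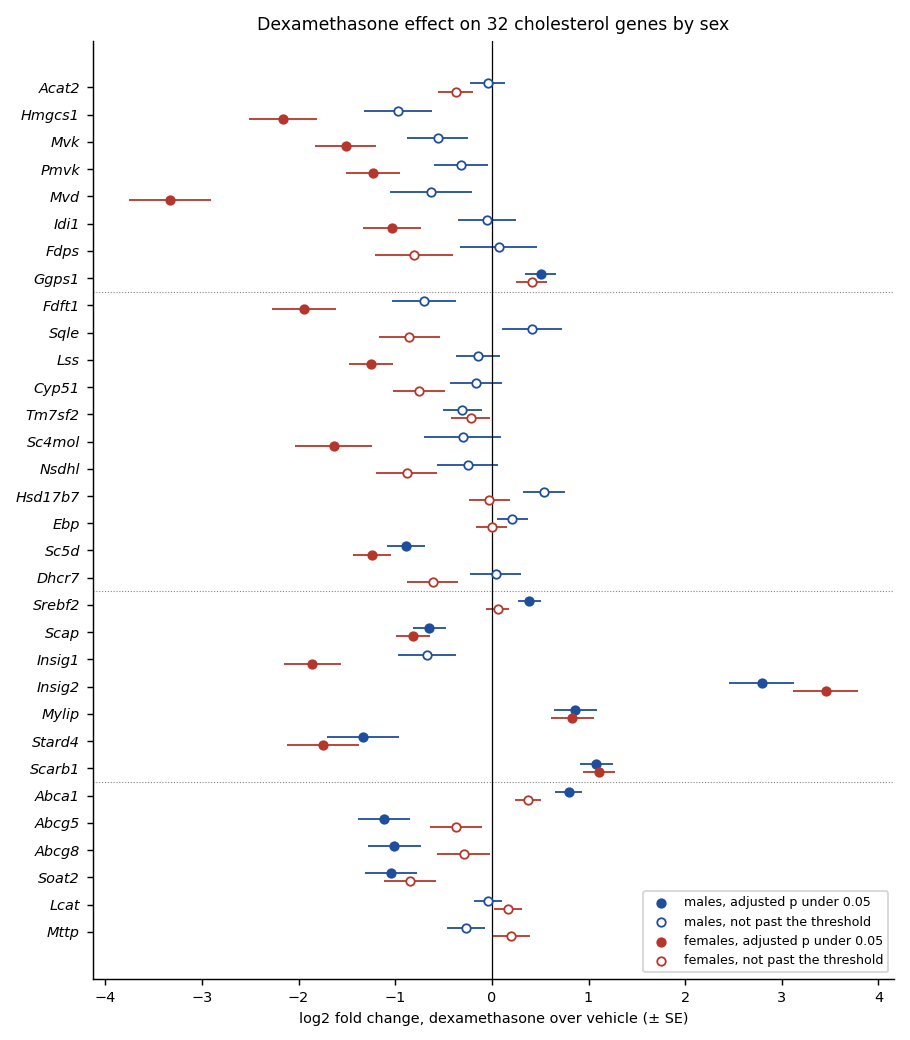
Log2 fold change, dexamethasone over vehicle, of each of the 32 genes in males (blue) and females (red), with standard error bars; filled points have an adjusted p under 0.05 and dotted lines divide the 4 role groups. Synthesis genes in the 2 upper blocks lie to the left in females (median −0.88) more than in males (median −0.16), and Insig2 stands at the right in both sexes (2.79 in males and 3.45 in females).

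In the mevalonate steps the greatest fall was that of Mvd, mevalonate diphosphate decarboxylase. Mvd measured 0.871, 0.408 and 0.355 kU in dexamethasone females, against 2.45, 6.54 and 8.02 in vehicle females. Every dexamethasone female lay below every vehicle female, and female vehicle 1 was well below the other two. The fold change was −3.33 ± 0.42 (limma adjusted p = 0.00117), or 10.1-fold lower. In males Mvd measured 1.20, 1.39 and 1.24 kU after dexamethasone, against 2.29, 1.88 and 1.78 after vehicle. The male groups did not overlap either, but the fold change of −0.63 ± 0.42 did not pass (limma adjusted p = 0.328).

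Hmgcs1 encodes the cytosolic HMG-CoA synthase, which makes the precursor of mevalonate. It measured 17.7, 10.2 and 24.6 kU in dexamethasone females, against 65.3, 60.3 and 101 in vehicle females. All dexamethasone females were far below all vehicle females, a fold change of −2.16 ± 0.35 (limma adjusted p = 0.00392). In males it measured 23.1, 24.2 and 15.05 kU after dexamethasone, against 57.0, 31.5 and 35.1 after vehicle, with no overlap. The male fold change was −0.97 ± 0.35 (limma adjusted p = 0.0727), and it passed without female dexamethasone 2 (0.0442), which changes only the shared spread, and with quantile normalization (0.0453). The other 2 Hmgcs1 probes gave −1.94 and −2.52 in females, and −0.26 and −1.32 in males. Sqle, squalene epoxidase, a rate-limiting enzyme of the sterol steps, measured 10.6, 5.85 and 7.79 kU in dexamethasone females, against 9.35, 16.8 and 18.2 in vehicle females. One dexamethasone female lay above the lowest vehicle female, and the fold change of −0.85 ± 0.31 did not pass (limma adjusted p = 0.101), except without female vehicle 1 (0.0469). In males Sqle was 13.3, 11.5 and 8.07 kU after dexamethasone, against 6.48, 7.69 and 10.4 after vehicle, a fold change of 0.42 ± 0.31 (limma adjusted p = 0.391).

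The 2 kinases of the mevalonate route fell in females. Mvk, mevalonate kinase, measured 0.760, 0.460 and 0.735 kU in dexamethasone females, against 1.20, 2.31 and 2.16 in vehicle females (−1.51 ± 0.32, limma adjusted p = 0.0116). Pmvk, phosphomevalonate kinase, measured 12.1, 9.04 and 19.7 kU in dexamethasone females, against 25.8, 32.1 and 33.4 in vehicle females (−1.23 ± 0.28, limma adjusted p = 0.017). Neither gene's female groups overlapped. The Pmvk call was lost without female vehicle 3, female dexamethasone 1 or female dexamethasone 2 (limma adjusted p = 0.0527 to 0.0558). In males Mvk measured 1.01, 0.878 and 0.570 kU after dexamethasone, against 1.20, 0.934 and 1.46 after vehicle, and Pmvk 16.2, 14.7 and 10.4 after dexamethasone, against 19.8, 13.6 and 18.1 after vehicle. Both pairs of male groups overlapped, with fold changes of −0.56 ± 0.32 for Mvk and −0.32 ± 0.28 for Pmvk (limma adjusted p = 0.235 and 0.458).

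Idi1, the isomerase that makes the isoprenoid building block, measured 16.4, 10.5 and 17.2 kU in dexamethasone females, against 22.2, 33.2 and 34.3 in vehicle females. The groups did not overlap and the fold change was −1.03 ± 0.30 (limma adjusted p = 0.0466). This call stood close to the threshold. It was lost with slide as a block (0.0815), with its probes averaged (0.0567), with no filter on dim probes (0.0533) and without any 1 of 9 arrays (0.0542 to 0.149), namely all 3 male vehicle arrays, female vehicle 2 or 3, male dexamethasone 2 and all 3 female dexamethasone arrays. In males Idi1 measured 24.3, 20.5 and 11.8 kU after dexamethasone, against 19.2, 15.1 and 22.4 after vehicle (−0.05 ± 0.30, limma adjusted p = 0.929). The array design places the Idi1 probe on chromosome 2 and the Hmgcs1 probe on an unplaced contig of mm7, and matches of either probe to near copies of the gene were not examined here.

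Ggps1, which makes geranylgeranyl diphosphate for protein prenylation and so lies on a side branch, was the one synthesis gene that rose. It measured 0.687, 0.879 and 0.843 kU in dexamethasone males, against 0.585, 0.523 and 0.583 in vehicle males (0.50 ± 0.16, limma adjusted p = 0.0419). In females it measured 0.647, 0.585 and 0.831 kU after dexamethasone, against 0.566, 0.497 and 0.477 after vehicle (0.41 ± 0.16, limma adjusted p = 0.113). Each sex had its dexamethasone animals above its vehicle animals. Averaged over both sexes the fold change was 0.46 ± 0.11 (limma adjusted p = 0.00934), a call lost when the probes were averaged (0.0852). The male call was weak: the other 2 probes of the gene gave 0.08 and −0.03 in males, the mean of its probes did not pass (0.354), and it was lost with no filter on dim probes (0.0632) and without any male vehicle array, male dexamethasone 2 or 3, female vehicle 3 or female dexamethasone 1 (0.0525 to 0.13). Of the remaining members of these steps, Acat2 and Fdps passed in no comparison with the brightest probe. Averaged over its 2 probes Fdps, farnesyl diphosphate synthase, passed in females (−1.38, limma adjusted p = 0.0345), while its second probe alone gave 1.39 in males and −1.96 in females.

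Downstream of the isoprenoids, 4 of 11 squalene and sterol genes fell in females, where 6.88% of all genes did. In males 1 of the 11 fell (9.09%), near the 12.1% of all genes that did. Fdft1, squalene synthase, the first committed enzyme toward sterols, measured 3.36, 2.05 and 4.07 kU in dexamethasone females, against 8.63, 13.3 and 13.9 in vehicle females. The lowest vehicle female lay above the highest dexamethasone female, and the fold change was −1.94 ± 0.33 (limma adjusted p = 0.005). In males Fdft1 measured 5.83, 3.96 and 2.59 kU after dexamethasone, against 6.61, 5.25 and 7.37 after vehicle, which overlapped (−0.70 ± 0.33, limma adjusted p = 0.16). Lss, lanosterol synthase, closes the first sterol ring system. It measured 1.11, 0.935 and 0.980 kU in dexamethasone females, against 1.59, 2.68 and 3.22 in vehicle females (−1.25 ± 0.23, limma adjusted p = 0.0069). Male Lss values were 1.16, 1.20 and 1.08 kU after dexamethasone, against 1.24, 1.11 and 1.49 after vehicle (−0.15 ± 0.23, limma adjusted p = 0.707), so the male groups overlapped and the female groups did not.

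Sc4mol, the sterol C4-methyl oxidase, measured 21.1, 12.8 and 26.8 kU in dexamethasone females, against 43.3, 73.4 and 68.3 in vehicle females (−1.64 ± 0.40, limma adjusted p = 0.0219). The groups did not overlap. The call was lost with slide as a block (0.0515) and without female vehicle 2, female vehicle 3 or female dexamethasone 2 (0.0635 to 0.0758). In males it spread widely, with 54.7, 39.9 and 17.9 kU after dexamethasone, against 42.9, 36.6 and 46.6 after vehicle (−0.30 ± 0.40, limma adjusted p = 0.648).

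Sc5d, the sterol C5-desaturase of the last steps, was the one synthesis gene that fell in both sexes taken singly. It measured 39.5, 38.7 and 27.9 kU in dexamethasone males, against 79.0, 56.7 and 60.4 in vehicle males (−0.89 ± 0.19, limma adjusted p = 0.00892). Female values were 41.8, 34.4 and 48.6 kU after dexamethasone, against 100.4, 85.5 and 107 after vehicle (−1.24 ± 0.19, limma adjusted p = 0.00327). Neither sex showed any overlap, and the second Sc5d probe fell further, by 2.36 in males and 2.43 in females. The other 6 squalene and sterol genes (Cyp51, Tm7sf2, Nsdhl, Hsd17b7, Ebp and Dhcr7) passed in no comparison, with fold changes between −0.31 and 0.54 in males and between −0.88 and −0.0039 in females. When the probes of a gene were averaged, Cyp51, the lanosterol demethylase, and Nsdhl, a sterol dehydrogenase, also passed in females (−1.14 and −1.36, limma adjusted p = 0.021 and 0.00778). When 1 array was left out, Cyp51 passed in females without female dexamethasone 3 (limma adjusted p = 0.0226) and Hsd17b7 in males without female vehicle 3 (0.0318). Female vehicle 3 lies outside the male comparison, and the Hsd17b7 fold change stayed the same without it.

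Slides 1 and 2 each held both female groups. Within slide 1, which held female dexamethasone 2 and female vehicle 2, the 9 genes that fell differed by −4.00 (Mvd) to −1.31 (Sc5d) on the log2 scale. Within slide 2, which held female dexamethasone 1 and 3 and female vehicle 1, they differed by −2.14 (Mvd) to −0.40 (Idi1). All 9 genes differed more on slide 1. Because their female groups did not overlap, the direction within a slide was fixed by the calls and adds nothing to them. Female vehicle 1 was the lowest vehicle female for 13 of the 19 synthesis genes, and female dexamethasone 2 the lowest dexamethasone female for 14, while female dexamethasone 3 was the highest for 15. Male dexamethasone 3 was likewise the lowest dexamethasone male for 15 of 19, and male vehicle 2 the lowest vehicle male for 15. Within each group the lowest values of the route thus fell mostly on 1 animal.

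**Figure D2:**
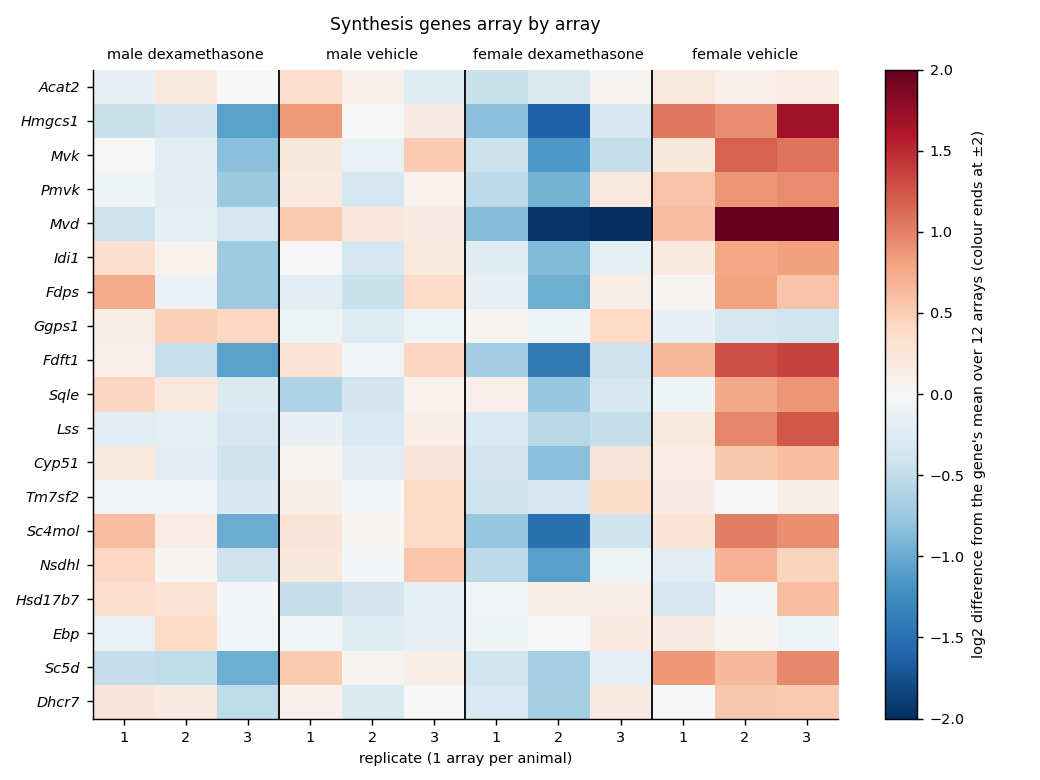
Log2 difference of each synthesis gene from its own mean over the 12 arrays, with genes in rows, arrays in columns and the replicate number below; red is above and blue below the mean, and colours end at 2 in either direction. Female vehicle 2 and 3 are red for nearly the whole route, female dexamethasone 2 is the darkest blue column of its group for 14 of 19 genes, and male dexamethasone 3 of its group for 15.

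Among the 7 regulators and uptake genes 4 rose and 2 fell in males, where 10.4% of all genes were higher and 12.1% lower. In females 3 rose and 3 fell, where 6.79% of all genes were higher and 6.88% lower. The foremost was Insig2, which encodes one of the 2 endoplasmic reticulum proteins that retain SCAP. Insig2 measured 101, 99.9 and 76.0 kU in dexamethasone males, against 11.3, 14.1 and 14.5 in vehicle males (2.79 ± 0.33, 6.92-fold, limma adjusted p = 0.000526). In females it measured 63.4, 85.9 and 171 kU after dexamethasone, against 7.92, 12.6 and 7.09 after vehicle (3.45 ± 0.33, 11.0-fold, limma adjusted p = 0.000317). The groups were far apart in both sexes. Within slides the difference was 3.14 and 2.63 in males (slides 1 and 3), and 2.77 and 3.72 in females (slides 1 and 2). No array, when left out, and no other setting ended either call. A second probe of the gene gave 2.59 in males and 3.51 in females.

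Insig1, the partner that is itself under sterol control, went the other way. It measured 1.47, 1.03 and 1.31 kU in dexamethasone females, against 2.90, 6.13 and 5.34 in vehicle females (−1.86 ± 0.30, limma adjusted p = 0.00348). As with the enzymes, female vehicle 1 was the lowest of its group, yet still above all dexamethasone females. In males Insig1 measured 1.97, 1.86 and 1.08 kU after dexamethasone, against 2.49, 2.65 and 2.43 after vehicle. These groups did not overlap, but the fold change of −0.67 ± 0.30 did not pass (limma adjusted p = 0.131). The average over both sexes did (−1.27 ± 0.21, limma adjusted p = 0.00114). A second Insig1 probe gave smaller falls, −1.16 in females and −0.48 in males.

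**Figure D3:**
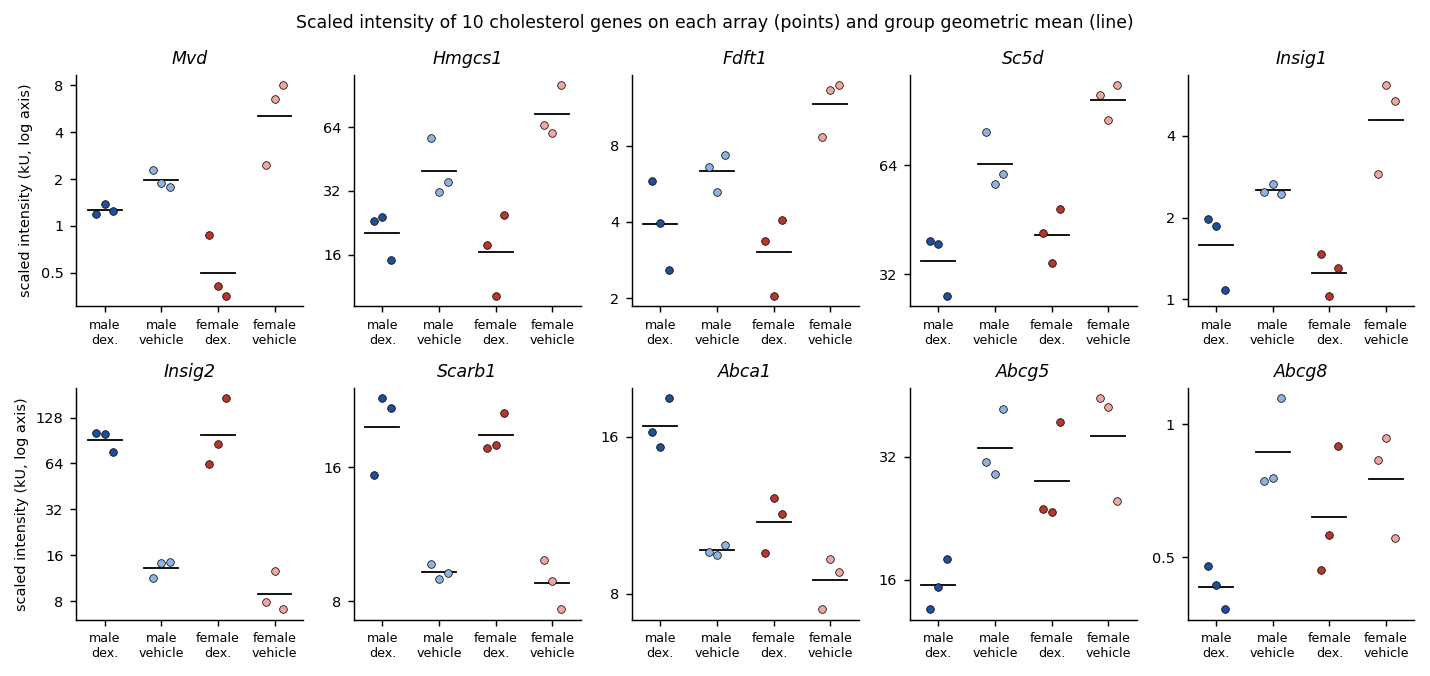
Scaled intensity in kU (log axis, a separate scale per gene) of 10 genes on each array, with dexamethasone left of vehicle for males (blue) and females (red); points are animals and lines are geometric means of 3. Mvd, Hmgcs1, Fdft1, Sc5d and Insig1 are lower in dexamethasone than in vehicle females without overlap, Insig2 and Scarb1 are higher in both sexes, and Abcg5 and Abcg8 overlap in females only.

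Scap and Srebf2, the escort and the factor it carries, did not move together. Scap measured 24.8, 26.5 and 22.7 kU in dexamethasone males, against 42.7, 34.3 and 39.0 in vehicle males (−0.65 ± 0.18, limma adjusted p = 0.0243). Female livers held 22.7, 19.6 and 29.3 kU after dexamethasone, against 49.6, 39.8 and 36.3 after vehicle (−0.82 ± 0.18, limma adjusted p = 0.013). There was no overlap in either sex. The male call was lost with slide as a block (0.0607) and without male vehicle 1 or 3 or male dexamethasone 1 or 3 (0.0554 to 0.0962), and the female call without female vehicle 1 (0.0509). Averaged over both sexes Scap fell by 0.73 ± 0.12 (limma adjusted p = 0.00133). Srebf2 measured 13.9, 13.6 and 12.8 kU in dexamethasone males, against 9.85, 10.1 and 10.7 in vehicle males (0.39 ± 0.12, limma adjusted p = 0.04). In females it measured 16.4, 14.0 and 14.1 kU after dexamethasone, against 13.1, 13.5 and 15.9 after vehicle (0.06 ± 0.12, limma adjusted p = 0.794). The male rise rested on a narrow margin, since it was lost with slide as a block (0.099), with quantile normalization (0.187), with its probes averaged (0.113), with no filter on dim probes (0.0619), and without any 1 male array or female dexamethasone 2 (0.0518 to 0.13). The other 3 Srebf2 probes gave 0.38, −0.05 and 0.75 in males.

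Scarb1, the HDL receptor of the hepatocyte, rose in both sexes by nearly the same amount. It measured 15.3, 22.9 and 21.7 kU in dexamethasone males, against 9.67, 8.98 and 9.26 in vehicle males (1.08 ± 0.17, limma adjusted p = 0.0017). Values in females were 17.7, 17.97 and 21.2 kU after dexamethasone, against 9.88, 8.87 and 7.67 after vehicle (1.11 ± 0.17, limma adjusted p = 0.00273). All dexamethasone animals lay above all vehicle animals. The difference between the sexes in this effect was 0.03, with a 95% interval of −0.50 to 0.55.

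Mylip, a ubiquitin ligase that marks lipoprotein receptors for breakdown and is known as a target of the oxysterol receptors, also rose in both sexes. It measured 3.11, 2.97 and 2.84 kU in dexamethasone males, against 1.58, 1.41 and 1.95 in vehicle males (0.87 ± 0.22, limma adjusted p = 0.0178). In females it measured 2.95, 2.54 and 4.24 kU after dexamethasone, against 2.30, 1.65 and 1.48 after vehicle (0.83 ± 0.22, limma adjusted p = 0.0314). Groups did not overlap. The male call was lost without male vehicle 1, male vehicle 2 or male dexamethasone 1 (0.0511 to 0.0659), and the female call without female vehicle 2 or 3 or female dexamethasone 1 or 3 (0.0611 to 0.102). Both were lost when the gene's 2 probes were averaged (0.0998 in males and 0.0794 in females). The average over both sexes was 0.85 ± 0.16 (limma adjusted p = 0.00204).

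Stard4, which carries sterol between membranes in the cytosol, fell in both sexes. It measured 4.42, 3.41 and 2.66 kU in dexamethasone males, against 9.48, 6.97 and 9.69 in vehicle males (−1.33 ± 0.37, limma adjusted p = 0.0277). Females measured 4.47, 5.49 and 1.84 kU after dexamethasone, against 9.36, 11.7 and 15.8 after vehicle (−1.75 ± 0.37, limma adjusted p = 0.0129). The groups stood apart in both sexes. The male call was lost without male vehicle 1 or 3 or male dexamethasone 2 or 3 (0.0698 to 0.0914). Its other 2 probes fell by 1.23 and 1.24 in males, and by 1.61 and 1.60 in females.

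With normexp background correction, which lifts the median over all genes by 0.25 in males and 0.22 in females, the single-sex calls of Scap (limma adjusted p = 0.0594 in males and 0.0538 in females), Stard4 (0.0795 and 0.0504), Scarb1 (0.113 and 0.109), Mylip (0.138 and 0.137) and, in males, Srebf2 (0.49) and Ggps1 (0.193) were lost. Their signs held, but Srebf2 then stood at 0.23 in males, where the median over all genes was 0.26. The size of the differences within slides varied, while their direction was fixed where groups did not overlap. Stard4 differed by −1.48 and −1.02 within slides 1 and 3 in males, and by −1.09 and −1.71 within slides 1 and 2 in females, and Scarb1 by 1.24 and 1.03 in males and by 1.02 and 0.97 in females.

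Of the 6 efflux and esterification genes 1 rose and 3 fell in males, where 10.4% of all genes were higher and 12.1% lower. In females 0 of 6 passed by limma's adjusted p, where 6.79% of all genes were higher and 6.88% lower. At an unadjusted p under 0.05 there were 2 of the 6, and 5478 of all 19340 genes. For none of the 6 did the difference between the sexes pass. Abca1, which loads cholesterol onto HDL particles, measured 16.3, 15.3 and 19.0 kU in dexamethasone males, against 9.63, 9.503 and 9.93 in vehicle males (0.79 ± 0.14, limma adjusted p = 0.00309). Vehicle males were tightly grouped and all dexamethasone males were well above them. In females it measured 9.58, 12.2 and 11.4 kU after dexamethasone, against 7.47, 9.31 and 8.80 after vehicle (0.37 ± 0.14, limma adjusted p = 0.102), also with no overlap. Over both sexes Abca1 rose by 0.58 ± 0.10 (limma adjusted p = 0.00127). The male and the averaged call were lost with normexp (0.169 and 0.14).

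Abcg5 and Abcg8, the 2 partners of the canalicular pump that secretes sterols into bile, fell together in males. Abcg5 measured 13.6, 15.4 and 17.96 kU in dexamethasone males, against 31.1, 29.1 and 41.9 in vehicle males (−1.11 ± 0.27, limma adjusted p = 0.0144). Abcg8 measured 0.477, 0.432 and 0.382 kU in dexamethasone males, against 0.743, 0.755 and 1.14 in vehicle males (−1.01 ± 0.28, limma adjusted p = 0.0245). For both genes male vehicle 3 was the highest array, and the male groups did not overlap. Without male vehicle 3 neither gene passed (0.0554 for Abcg5 and 0.0889 for Abcg8). The Abcg8 call was also lost without male dexamethasone 2 (0.0614) or 3 (0.0749), with slide as a block (0.0682) and with normexp (0.14). In females Abcg5 measured 23.9, 23.4 and 39.1 kU after dexamethasone, against 44.5, 42.4 and 24.9 after vehicle (−0.37 ± 0.27, limma adjusted p = 0.416). Abcg8 measured 0.467, 0.562 and 0.891 kU in dexamethasone females, against 0.828, 0.931 and 0.553 in vehicle females (−0.29 ± 0.28, limma adjusted p = 0.549). In both genes female dexamethasone 3 stood with the vehicle animals and female vehicle 3 with the dexamethasone animals, which is where the groups overlapped. Averaged over both sexes the pair fell, by 0.74 ± 0.19 for Abcg5 and 0.65 ± 0.19 for Abcg8 (limma adjusted p = 0.0124 and 0.025). The averaged Abcg8 call was lost without male vehicle 3, female vehicle 1, female vehicle 2, male dexamethasone 3, female dexamethasone 1 or female dexamethasone 2 (0.0546 to 0.0589), with normexp (0.0911) and with its probes averaged (0.0517).

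Soat2, which esterifies cholesterol for storage and secretion, measured 0.860, 0.544 and 1.06 kU in dexamethasone males, against 1.75, 1.41 and 1.76 in vehicle males (−1.04 ± 0.27, limma adjusted p = 0.0189). Among females it measured 0.823, 0.762 and 1.29 kU after dexamethasone, against 2.05, 1.46 and 1.56 after vehicle (−0.84 ± 0.27, limma adjusted p = 0.0621). Neither sex overlapped. The male call was lost without male vehicle 1, male vehicle 3 or male dexamethasone 2 (0.0604 to 0.0692), and the female value passed without male dexamethasone 2 or female dexamethasone 3 (0.0299 to 0.036). Leaving out male dexamethasone 2 did not change the female fold change, only the shared spread. Averaged over both sexes Soat2 fell by 0.94 ± 0.19 (limma adjusted p = 0.00344). Lcat, which esterifies cholesterol on HDL in plasma, and Mttp passed in no comparison. Within slides 1 and 3 the male differences were 0.67 and 0.89 for Abca1, −1.02 and −0.90 for Abcg5, −0.78 and −0.82 for Abcg8, and −1.68 and −0.56 for Soat2.

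The study compared the sexes, and the difference between the female and the male effect of dexamethasone was tested in the same fit. None of the 32 genes passed the adjusted threshold (0 called, lowest limma adjusted p = 0.475), against a background of 0.00517% of all genes, which is 1 gene. At an unadjusted p under 0.05 there were 9 members, against 5.34% of all genes. These were Hmgcs1, Pmvk, Mvd, Idi1, Fdft1, Sqle, Lss and Sc4mol of the synthesis genes, and Insig1, all with the more negative effect in females. Over the 19 synthesis genes the median difference was −0.87, with 18 estimates below 0, and over all genes it was 0.01. Mvd had the largest difference in size of the 32, −2.70 ± 0.60, with a 95% interval of −4.03 to −1.37, and Lss followed in p with −1.10 ± 0.32 and an interval of −1.82 to −0.39. With dim probes left in, Mvd passed (limma adjusted p = 0.0295), but in that setting 2278 genes of the whole array did, against 1. Insig2 differed by 0.66, with an interval of −0.38 to 1.71, and Abcg5 and Abcg8 by 0.74 and 0.72, with intervals of −0.10 to 1.58 and −0.14 to 1.58. At these widths a difference of 1 on the log2 scale in either direction could not be told from 0 for many members, so the lack of a call does not show that the sexes responded alike.

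**Figure D4:**
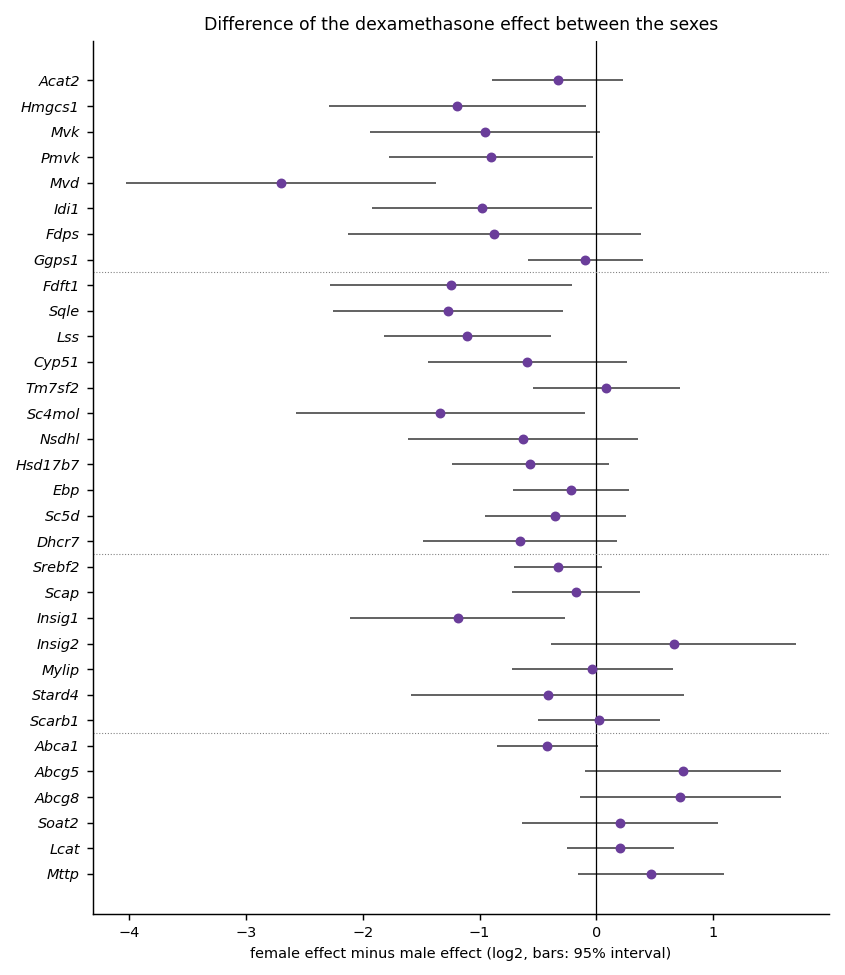
Difference of the dexamethasone effect between the sexes, female effect minus male effect on the log2 scale, for each of the 32 genes in role order with 95% intervals. Points of 18 of the 19 synthesis genes lie left of 0 (median −0.87), and Mvd lies farthest left at −2.70; none passed the threshold after adjustment over all genes.

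The remaining comparisons set the sexes against each other within a treatment. Under vehicle 0 of the 32 genes passed (lowest limma adjusted p = 0.0781), against 1.97% of all genes. At an unadjusted p under 0.05 there were 9 members, against 13.7% of all genes. The median of the 19 synthesis genes was 0.56, with 17 of 19 estimates above 0, where the median over all genes was −0.05. Lss had the lowest p, at 1.59, 2.68 and 3.22 kU in vehicle females, against 1.24, 1.11 and 1.49 in vehicle males (0.91 ± 0.23, limma adjusted p = 0.0781). It passed without female vehicle 1 (0.00686), as did Mvd (0.0268). Within slides 1, 2 and 3 Lss differed by 1.12, 0.09 and 1.53, and Mvd by 1.51, 0.46 and 2.09, so both were least on the slide of female vehicle 1.

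Under dexamethasone 0 of the 19 synthesis genes passed, as under vehicle. Of their estimates 2 of 19 lay above 0, with a median of −0.24. Across the 32 genes 1 passed, against 5.81% of all genes, and 4 passed at an unadjusted p under 0.05, against 22.2% of all genes. The 1 gene was Abca1, with 9.58, 12.2 and 11.4 kU in dexamethasone females, against 16.3, 15.3 and 19.0 in dexamethasone males (−0.61 ± 0.14, limma adjusted p = 0.0311). The groups did not overlap. The call was lost with slide as a block (0.238), with normexp (0.582) and without male dexamethasone 1, male dexamethasone 3 or female dexamethasone 1 (0.0714 to 0.112). Slide 1, the one slide with both dexamethasone groups, gave −0.33. Mvd, at 0.871, 0.408 and 0.355 kU in dexamethasone females, against 1.20, 1.39 and 1.24 in dexamethasone males, passed without female vehicle 1 (0.0325) and not otherwise (−1.34 ± 0.42, limma adjusted p = 0.0939). Female vehicle 1 lies outside this comparison, so leaving it out changed only the shared spread and not the fold change. The 2 sex comparisons within a treatment share no arrays with each other, but each shares its arrays with the difference of effects above.

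Other genes of the pathway were taken from a list of 37, of which 36 were tested (Pdss2 was not). In males 6 rose and 6 fell, against 10.4% of all genes higher and 12.1% lower. In females 2 rose and 3 fell, against 6.79% and 6.88%, and averaged over both sexes 7 rose and 8 fell, against 16.6% and 17.4%. The counts of the list lie near these shares of all genes. Srebf1, the related factor that drives fatty acid synthesis and is known as a target of insulin and of the oxysterol receptors, had the greatest change among them. It measured 9.31, 9.46 and 8.06 kU in dexamethasone males, against 64.6, 83.4 and 76.2 in vehicle males (−3.06 ± 0.50, limma adjusted p = 0.00224). The females measured 47.8, 36.9 and 8.29 kU after dexamethasone, against 86.5, 107 and 92.4 after vehicle (−1.96 ± 0.50, limma adjusted p = 0.0276). Female dexamethasone 3 alone lay in the range of the dexamethasone males. The female call was lost with slide as a block (0.0741) and without any 1 vehicle female (0.0666 to 0.0696). Erlin1, an endoplasmic reticulum protein tied to the breakdown of sterol-regulated proteins, measured 3.44, 3.99 and 3.12 kU in dexamethasone females, against 9.35, 7.82 and 9.81 in vehicle females (−1.35 ± 0.15, limma adjusted p = 0.000514). In males Erlin1 measured 4.99, 5.73 and 4.60 kU after dexamethasone, against 7.46, 6.21 and 6.81 after vehicle, with no overlap (−0.42 ± 0.15, limma adjusted p = 0.0636). It passed in males with quantile normalization (0.0406), and the difference between the sexes did not pass (limma adjusted p = 0.475).

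Averaged over both sexes, Mbtps2, a protease that releases the SREBP factors, was higher by 0.79 ± 0.11 (limma adjusted p = 0.000505), from a dim probe at 0.0130 to 0.0397 kU. Its call was lost with normexp (0.13). In males alone it was higher by 1.14 ± 0.16 (limma adjusted p = 0.00109), and in females its fold change was 0.45 ± 0.16 (limma adjusted p = 0.0879). In the isoprenoid branch Nus1, Pdss1 and Fntb rose by 0.45 ± 0.09, 0.74 ± 0.11 and 0.45 ± 0.10 (limma adjusted p = 0.00459, 0.000783 and 0.00679). The averaged calls of Nus1 and Fntb were lost with normexp (0.13 and 0.0928), and that of Fntb with its probes averaged (0.0995). Fntb rose in males by 0.77 ± 0.14 (limma adjusted p = 0.00433), while in females the groups overlapped and its fold change was 0.13 ± 0.14 (limma adjusted p = 0.63). Nus1 passed in males (0.0359) and not in females (0.0512), and Pdss1 passed in both (0.00601 and 0.0203). These genes serve dolichol, ubiquinone and farnesylated proteins, which draw on the same precursors as Ggps1. Of the genes that free or store cholesterol inside cells, Lipa fell by 0.79 ± 0.14, Soat1 by 1.13 ± 0.16 and Nceh1 by 0.45 ± 0.13 (limma adjusted p = 0.00147, 0.000478 and 0.0207). Taken singly, Lipa and Soat1 passed in males (limma adjusted p = 0.00385 and 0.000841) and not in females (0.0972 and 0.126), and Nceh1 passed in neither sex. Soat1, the second esterifying enzyme and known chiefly from macrophages, measured 0.453, 0.280 and 0.467 kU in dexamethasone males, against 1.31, 1.28 and 1.20 in vehicle males, and 0.988, 1.06 and 1.14 in dexamethasone females, against 2.03, 1.19 and 1.60 in vehicle females.

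Among lipoprotein genes averaged over both sexes, Apoa1, the protein of HDL, rose by 0.67 ± 0.13 (limma adjusted p = 0.00342) and Abcg1, another exporter toward HDL, fell by 0.83 ± 0.21 (limma adjusted p = 0.0116). Apoc3 rose by 0.34 ± 0.10 and Lipc, the hepatic lipase, fell by 0.41 ± 0.12 (limma adjusted p = 0.0281 and 0.0208). Apoa1 passed in both sexes taken singly (limma adjusted p = 0.0245 in males and 0.0486 in females), and Abcg1, Apoc3 and Lipc in males and not in females (limma adjusted p in males = 0.0212, 0.0464 and 0.036). For none of them did the difference between the sexes pass. With normexp the averaged calls of Apoa1 (0.0908) and Apoc3 (0.581) were lost, that of Apoc3 with quantile normalization too (0.482). The Lipc call was lost without male vehicle 1, female vehicle 1 or female dexamethasone 1, at adjusted p of up to 0.0553. That of Apoc3 was lost without male vehicle 1 or 3, female vehicle 3, male dexamethasone 2, or female dexamethasone 1 or 2, at adjusted p of up to 0.0736. Of 4 genes that convert cholesterol to bile acids, Cyp27a1, the sterol 27-hydroxylase, rose by 0.65 ± 0.18 (limma adjusted p = 0.0189), a call lost with normexp (0.115), and Cyp7a1, the rate-limiting enzyme, did not pass, with 18.6, 22.9 and 5.10 kU in dexamethasone males, against 11.9, 13.3 and 8.86 in vehicle males, and 20.4, 19.3 and 12.8 in dexamethasone females, against 13.5, 13.3 and 9.48 in vehicle females.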

How the data were processed

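The deposited scanner files hold intensity values on a linear scale, which the authors' software had background-subtracted, per the file headers. Per the submitters' processing notes this was Agilent Feature Extraction 9.5. Each 1-colour array held 45018 spots, of which 1639 control spots were left out. Signals were taken to log2 and each array's 75th percentile was subtracted. Probes were kept if the scanner flag put them well above background throughout at least 1 group (28842 probes), outlier spots were left out, and probes were named through RefSeq (assembly GRCm38.p6). The brightest probe stood for a gene, which gave 19340 genes. All 12 arrays entered 1 fit of the 4 groups with limma 3.58.1 in R 4.3.3 (8 residual degrees of freedom), followed by Benjamini-Hochberg adjustment across every gene. The procedure was run on simulated data with independent noise and no slide effect, which cannot show how it performs where slides differ. The members and lists were chosen with earlier results of these data known. Every member with an adjusted p under 0.05 in any of 6 comparisons was described array by array. Values of 1 gene of the wider pathway, which stays in the counts of that list, are not reported here. Replicates are separate animals. The p-values weigh a group difference against the spread between animals, which is pooled over the 4 groups and moderated by limma over all genes. Having 3 animals per group limits the precision. The alternatives tried were normexp background correction with an offset of 50, quantile or median scaling, no filter or a filter over all 12 arrays, averaging the probes of a gene, slide or replicate number as a block, and leaving out each array. Coordinates of probes are on mm7 and those of promoters on GRCm38.p6.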

Additional observations from a re-analysis of the deposited data

How the results depend on the processing

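Of 47 calls of a member in a comparison, 32 kept their side of the threshold with normexp background correction, 46 with quantile normalization, 47 with median scaling, 47 with the filter over all 12 arrays, 44 with no filter, 40 with probes averaged per gene, 41 with slide as a block and 44 with replicate number as a block. Of 564 repeats with 1 array left out, 503 kept it. None of these calls reversed its direction under any of these settings. With normexp the number of members called in males was 4, against 12, and females against males under dexamethasone had 0 members, against 1. That last count was 3 with quantile normalization (Abca1, Abcg5 and Lcat) and 0 with slide as a block. Without a filter on dim probes the difference of effects called 1 member, Mvd, against 0. With 1 array left out the number of members called was 5 to 12 in males, 11 to 15 in females, 18 to 22 averaged over both sexes, 0 to 0 for the difference of effects, 0 to 2 for females against males under vehicle and 0 to 2 under dexamethasone.

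Over the whole array the count with normexp was 908 in males, against 4359, 536 in females, against 2644, and 2603 averaged over both sexes, against 6587. The difference of effects called 2278 genes without a filter, against 1. Females against males called 244 with replicate number as a block and 88 with normexp under vehicle, against 381. Under dexamethasone they called 244 with slide as a block, 703 with replicate number as a block, 4233 without a filter and 59 with normexp, against 1123. With 1 array left out the counts were 2342 to 5026 in males, 1504 to 2568 in females, 5259 to 6688 averaged, 1 to 32 for the difference of effects, 158 to 436 under vehicle and 455 to 1281 under dexamethasone. The cause of these shifts was not tested. Deviations of same-numbered arrays from their group means had correlations of −0.22 to 0.33. The highest was between female vehicle 2 and female dexamethasone 2, both on slide 1. Arrays with different numbers were not compared, so these values cannot decide whether the replicate numbers pair the animals. With replicate number as a block Idi1 in females (limma adjusted p = 0.0832), Ggps1 in males (0.0697) and Srebf2 in males (0.0782) lost their calls and Soat2 in females gained one (0.0363).

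All values are from 1 dose and 1 time in whole liver, with 3 animals per group. Male vehicle arrays all sat at position 1 of their slide, so position and group can be told apart only in part. The same holds for slide, since slide 2 held no dexamethasone male and slide 3 no dexamethasone female. Some calls near the threshold were lost with 1 array left out. For Abcg5 in males that array, male vehicle 3, belonged to the comparison, and the fold change went from −1.11 to −0.95. Other arrays lay outside it: the female Idi1 call was lost without male vehicle 1 (limma adjusted p = 0.0641) at an unchanged −1.03. Repeats of that second kind leave the compared animals in place, so they do not show that a call rests on few animals.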

Other observations

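Some genes of the wider pathway differed between the sexes. Cyp7b1, the oxysterol 7-alpha-hydroxylase, had scaled intensities of 10.9, 16.0 and 8.74 kU in vehicle females, against 42.1, 74.3 and 86.6 in vehicle males (−2.49, limma adjusted p = 0.00172). Under dexamethasone it measured 9.89, 12.6 and 16.0 kU in females, against 138, 121 and 105 in males (−3.26, limma adjusted p = 0.000265). Females and males did not overlap under either treatment, and the within-slide differences were −1.39, −2.99 and −3.09 under vehicle and −3.27 on slide 1 under dexamethasone. Soat1 was higher in dexamethasone females than in dexamethasone males (1.44, limma adjusted p = 0.00589, 1.92 within slide 1). Lipc was higher there too (0.99, limma adjusted p = 0.00841), but not with slide as a block (0.108), and Fntb was lower (−0.63, limma adjusted p = 0.0316), again not with that block (0.228).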
